A study of Mus musculus with 12 samples.

Results

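Integrins are the paired alpha and beta surface receptors that fasten cells to the matrix, and laminins are the 3-chain proteins of the basement membrane on which epithelial cells rest. The genes described here are 36 such receptors and matrix proteins, taken by name from both count tables of a study of Foxc1 loss in mouse hair follicle stem cells. They comprise 19 integrin chains, 10 laminin chains and 7 others, namely the linkers Nid1, Nid2 and Hspg2, the ligand Npnt, and the Fraser complex genes Fras1, Frem1 and Frem2. All 36 were present among the 37931 gene names shared by both tables. The rule names the genes and uses no measured value, though the genes were chosen with earlier results of these data known.

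Cells were sorted from dissociated back skin as H2BGFP positive, Sca-1 negative, CD34 positive and CD49f positive. H2BGFP is a fluorescent histone, and both it and Cre were driven by the keratin 14 promoter of basal keratinocytes and follicle stem cells, so Cre was not limited to the sorted cells. Knockout (KO) mice were K14-H2BGFP, K14Cre, Foxc1 fl/fl, and wild-type (WT) controls were K14-H2BGFP, Foxc1 fl/fl, so both genotypes carried the reporter and the floxed alleles and Cre was in KO alone. RNA-seq was run on 12 libraries of oligo(dT)-selected RNA. Anagen, the growth phase, had 3 WT libraries (replicates 1, 2 and 3, titled P29, P30 and P31) and 2 KO libraries (replicates 1 and 2, titled P29 and P31). Early telogen, the resting phase, had 3 WT libraries (replicates 1, 3 and 4, titled P47) and 4 KO libraries (replicates 1, 2 and 3, titled P47, and replicate 5, titled P43). Library values below follow that order. Sex labels, in that order, were female, male and male in anagen WT, and female in both anagen KO libraries. In early telogen they were female, female and male in WT, and female, male, female and female in KO. Early telogen KO replicate 2 was thus the only male KO library, so a sex covariate within KO sets apart that library alone. Anagen WT replicate 3 had an age label of 43 days and early telogen KO replicate 5 one of 47 days, so title and age differ in both. Whether replicates came from separate animals is not stated, so the p-values measure the spread between samples, which may be technical.

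In skin, basal keratinocytes hold the basement membrane by 2 kinds of junction. Hemidesmosomes use the integrin of Itga6 and Itgb4 bound to a laminin that holds Lama3 and Lamb3, and focal adhesions use Itgb1 with several alpha chains. In the bulge, the niche of the stem cells, the stem cells are known to deposit nephronectin (Npnt), to which the arrector pili muscle attaches through the integrin of Itga8 and Itgb1. The Itga6 product is CD49f, a marker of the sort, so its level was in part set by the gate.

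Anagen libraries held 29025553 to 54482469 counts over genes, and early telogen libraries 2662083 to 11821916, with KO replicate 5 the shallowest. Foxc1 was between 0.206 and 3.11 CPM (a gene's counts over the library's gene total, times 1000000) in the 6 KO libraries and between 34.6 and 116 CPM in the 6 WT libraries. Of the markers of the sorted cells, Krt14 was between 6231 and 9574 CPM in the 12 libraries, and Cd34 was between 230 and 417 CPM in KO and between 352 and 845 CPM in WT. Cd34, whose product is a marker of the sort, was called lower in early telogen KO (log2 fold change -1.20, edgeR adjusted p = 0.0214). In anagen its KO change did not pass (-1.22, edgeR adjusted p = 0.314). Ly6a, the Sca-1 gene, was between 2.13 and 9.02 CPM outside early telogen KO replicate 2, where it was at 56 CPM. Early telogen KO replicate 2 stood apart, with 5022 CPM summed over 9 fibroblast markers and 4892 CPM over 6 markers of infundibulum and differentiated epidermis. These sums were between 481 and 1521 CPM and between 992 and 1362 CPM in the other early telogen KO libraries. Early telogen WT replicate 3 had the lowest sums of its group, at 266, 143 and, for 8 endothelial markers, 4.45 CPM, where its group's other libraries had at least 853, 1033 and 24.5 CPM. Exons of 11 of the 36 genes overlap annotated exons on the other strand by 9 to 1124 bases (Itga4, Itga7, Itga8, Itgav, Itgb4, Lama2, Lama3, Lamc3, Nid1, Nid2 and Fras1), and reads from the 2 strands cannot be told apart because the strand setting of the counting is not given. Counts come from bulk RNA, in which fewer cells of a type and less RNA per cell cannot be told apart.

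Promoters are shown for the laminin beta chains Lamb3 and Lamb1, which moved in opposite directions between the stages, and for the ligand Npnt. Each run covers 250 bases before to 50 bases after a RefSeq start in GRCm38.p6, 5′ to 3′ on the gene's strand, with GC boxes (GGGCGG on either strand) in capitals. The windows are chr1:193301744-193302043 (plus strand) for Lamb3, chr12:31265043-31265342 (plus strand) for Lamb1 and chr3:132950242-132950541 (minus strand) for Npnt. The Lamb3 window lies inside the GENCODE span of the gene (chr1:193207699-193343878), whose own start has no window here. Lamb3 and Npnt each had a second RefSeq start, whose window is not shown and held no GC box (5 CpG for Lamb3, 26 for Npnt).
Lamb3: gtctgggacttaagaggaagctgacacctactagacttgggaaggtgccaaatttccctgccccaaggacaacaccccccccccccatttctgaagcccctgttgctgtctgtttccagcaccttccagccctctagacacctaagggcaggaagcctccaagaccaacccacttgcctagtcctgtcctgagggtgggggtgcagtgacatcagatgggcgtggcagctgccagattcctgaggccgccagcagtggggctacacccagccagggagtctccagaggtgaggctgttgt
Lamb1: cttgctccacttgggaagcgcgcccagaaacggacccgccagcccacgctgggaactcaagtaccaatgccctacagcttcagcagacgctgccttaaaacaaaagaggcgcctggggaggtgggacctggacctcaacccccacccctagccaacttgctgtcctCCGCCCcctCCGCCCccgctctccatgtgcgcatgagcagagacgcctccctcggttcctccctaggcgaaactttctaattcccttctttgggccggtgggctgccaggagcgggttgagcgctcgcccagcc
Npnt: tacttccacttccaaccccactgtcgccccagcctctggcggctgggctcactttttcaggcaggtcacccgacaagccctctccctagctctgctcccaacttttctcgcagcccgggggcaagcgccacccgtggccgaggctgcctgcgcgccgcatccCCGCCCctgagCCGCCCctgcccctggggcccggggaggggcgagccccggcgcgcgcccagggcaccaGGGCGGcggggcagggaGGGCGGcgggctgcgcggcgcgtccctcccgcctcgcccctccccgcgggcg
The Lamb3 window held 2 CpG dinucleotides and no GC box, the Lamb1 window 18 CpG and 2 GC boxes, and the Npnt window 32 CpG and 4 GC boxes, against a median of 7 CpG over 32851 promoters. RefSeq promoters were matched for 25 of the 36 genes, 30 windows in all. A GC box was in 14 of those 30 and in 35.7% of all promoters. The AP-1 core TGANTCA was in 2 of 30 (7.81% of all), the forkhead core GTAAANA in 1 of 30 (12.4% of all) and TATAAA in 0 of 30 (13.6% of all), searched on both strands. These matches describe the letters only.

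Set beside each other per kilobase of exon, the highest levels were those of the keratinocyte adhesion genes. Itgb1 was the highest in all 4 group means, from 167 CPM per kb in anagen WT to 303 in early telogen WT. Averaged over the 12 libraries, of which 7 are early telogen, Itgb1 led at 235 CPM per kb, followed by Itgb4 at 119, Lama3 at 96.1, Lamb3 at 91.5, Itga6 at 80.3 and Itga3 at 62.3 CPM per kb. The ranges over libraries overlapped between each of these neighbours, and the order differed by group. In anagen WT, Itgb4 (107 CPM per kb), Itga3 (86.5), Itga6 (81.3), Lamb3 (64.8), Npnt (63) and Lama3 (46.7) followed Itgb1. In anagen KO, Lamb3 (28.3 CPM per kb) was below Lamb1 (44.6), Lama3 (39.3), Lama5 (32.1) and Itgb5 (31.3). Npnt (30.5 CPM per kb), Lama5 (25.2) and Itgb5 (20.5) came next, over the 12 libraries, and the lowest were Itga9 (0.124), Lama1 (0.105) and Frem1 (0.0366 CPM per kb). In total, 18 of 36 genes had at least 10 CPM in every library, 11 stayed below 10 CPM in every library, and 0 were below 1 CPM in all 12. The low set held Itgb7 and Itgb3, known from leukocytes and platelets, and Itga4 and Itga9, which bind VCAM1 and other ligands. Itga9 was between 0.185 and 1.6 CPM.

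**Figure D1:**
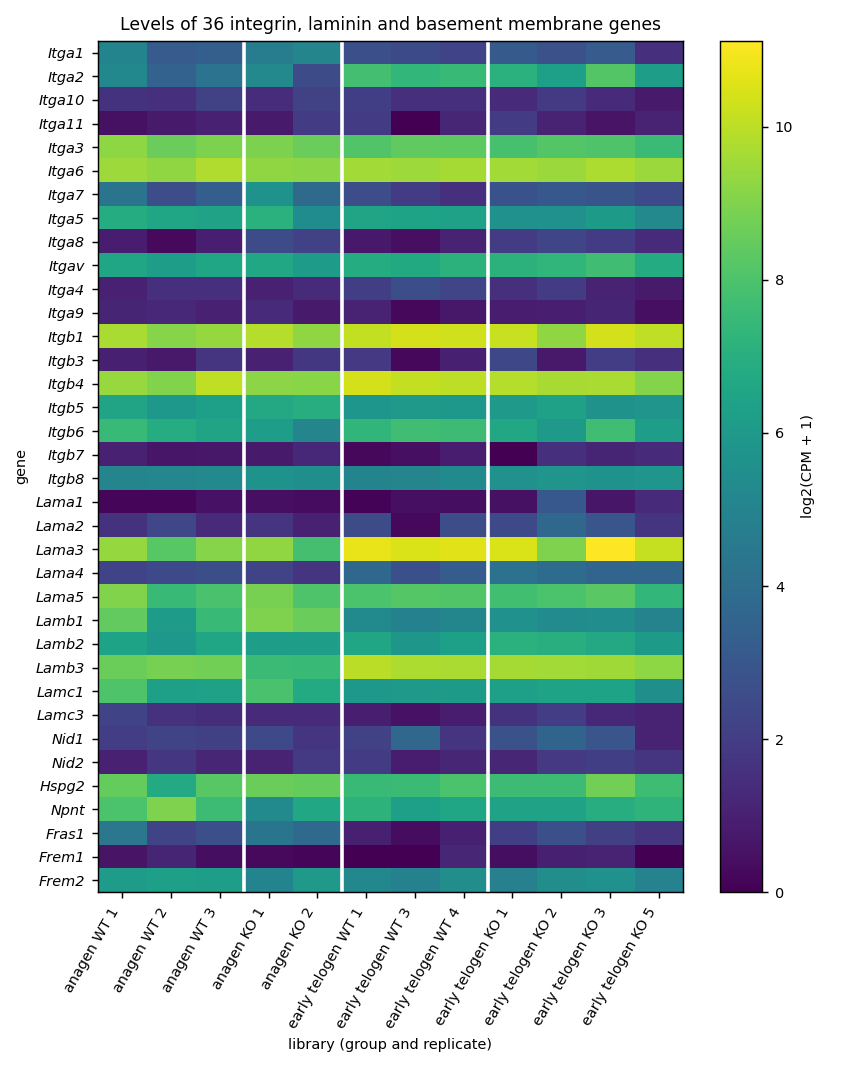
Heat map of log2(CPM + 1) for the 36 genes (rows) in the 12 libraries (columns, by group and replicate). Itgb1, Itgb4 and Itga6 are bright throughout, Lamb3 is dimmer in anagen and most so in anagen KO, and white lines part the 4 groups.

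Between anagen and early telogen in WT, the laminin, integrin and Fraser complex genes moved in both directions, with 7 of 35 tested genes higher in early telogen and 6 lower. Itga2, Itga4, Itgav, Itgb1, Lama3, Lama4 and Lamb3 rose, and Itga1, Itga7, Lamb1, Npnt, Fras1 and Frem2 fell. Over all 12718 genes tested, 13.6% were higher and 15.9% lower by the same rule (edgeR quasi-likelihood test, adjusted p under 0.05). The median log2 fold change was -0.02 over the genes described here and -0.10 over all genes. In KO, 3 of 36 rose (Lama2, Lama4 and Lamb3) and 7 fell (Itga1, Itga3, Itga7, Itgb5, Lamb1, Lamc1 and Fras1), where 10.2% of 12771 genes were higher and 12% lower. The KO median was 0.29 over these genes and -0.03 over all genes. Stage coincides with the count table and with depth, so stage, table and depth cannot be told apart. Leaving out early telogen WT replicate 3 or replicate 4 left 2 WT genes lower in place of 6, leaving out anagen WT replicate 2 or early telogen WT replicate 4 left 4 higher in place of 7, and leaving out anagen KO replicate 1 left 4 KO genes lower in place of 7. The KO count of genes higher was 3 with edgeR, 8 with no filter on low counts, 7 with DESeq2 and 5 with all 12 libraries in 1 fit.

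WT and KO libraries are separate samples, and 6 genes passed in the same direction in both, which is 46.2% of the 13 called in WT and 60% of the 10 called in KO. They were Itga1, Itga7, Lamb1 and Fras1, lower in early telogen, and Lama4 and Lamb3, higher. Over all genes, 1867 were shared in the same direction, 49.8% of the 3748 called in WT and 65.9% of the 2835 called in KO, so the share among these genes was near that of all genes.

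Of the laminin beta chains, Lamb3 and Lamb1 moved in opposite directions between the stages. Lamb3 (chr1:193207699-193343878), the beta chain of the hemidesmosomal laminin, was at 398, 452 and 435 CPM in anagen WT, 192 and 182 in anagen KO, 1011, 858 and 838 in early telogen WT, and 790.2, 772, 739.9 and 593 in early telogen KO. Every early telogen library was above every anagen library, and the rise was a log2 fold change of 1.16 ± 0.17 (adjusted p = 0.00183) in WT and a log2 fold change of 1.95 ± 0.26 (adjusted p = 0.000722) in KO. Lamb1 (chr12:31265234-31329644), the beta chain of most other laminins, was at 344, 67.3 and 182 CPM in anagen WT, 506 and 379 in anagen KO, 39.5, 28.6 and 33 in early telogen WT, and 48.9, 40.5, 42.9 and 30.1 in early telogen KO. All 7 early telogen libraries lay below all 5 anagen libraries, with a log2 fold change of -2.46 ± 0.56 (adjusted p = 0.0213) in WT and a log2 fold change of -3.44 ± 0.26 (adjusted p = 1.82e-05) in KO. The WT call of Lamb1 was lost without anagen WT replicate 3 (adjusted p = 0.058), early telogen WT replicate 1 (0.0569), replicate 3 (0.0674) or replicate 4 (0.0738), and with no filter on low counts (0.0823). Without anagen WT replicate 1 its log2 fold change was -1.78 (adjusted p = 0.0194), and over all alternatives the adjusted p ran from 2.26e-07 to 0.0823. Lamb2 did not pass in either genotype (log2 fold changes -0.02 in WT and 0.54 in KO) and ranged from 58.9 to 138 CPM.

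Expressed per kilobase, Lamb1 made up 7.98% to 31.8% of the summed beta chain level in anagen WT, 49% and 55.2% in anagen KO, and 2.02% to 3.35% in early telogen of both genotypes. Lamb3 made up 55.1% to 80.4% in anagen WT, 31.5% and 35.4% in anagen KO, 89% to 91.2% in early telogen WT and 81.2% to 86.7% in early telogen KO. Both anagen KO libraries thus had a Lamb1 share above every other library and a Lamb3 share below every other library. These shares are of RNA levels and were not tested. Summed over 7 genes, smooth muscle and pericyte markers were at 554, 185 and 210 CPM in anagen WT and 636 and 285 CPM in anagen KO, highest in the replicate 1 libraries, which also had the highest Lamb1 of their groups. In early telogen they were between 186 and 317 CPM. Cspg4 alone had group means of 153.5 to 222.5 CPM, and the 7 genes did not move together. Between stages in KO, Myh11 rose (log2 fold change 1.61, edgeR adjusted p = 0.00819). Acta2 (-3.55, adjusted p = 0.000277) and Tagln (-3.95, adjusted p = 0.000909) fell, and the other 4 did not pass. In WT, 0 of the 7 passed. The part of smooth muscle and pericytes in the Lamb1 values was not tested.

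Among alpha chains, Lama3, the partner of Lamb3, was at 660.3, 299 and 546 CPM in anagen WT, 618 and 226 in anagen KO, 1706, 1448 and 1576 in early telogen WT, and 1433, 506, 2230 and 1143 in early telogen KO. The rise in WT was a log2 fold change of 1.74 ± 0.27 (adjusted p = 0.00235), without overlap. Early telogen KO replicate 2 is the only male KO library, so in KO the sex covariate and its omission are not separate alternatives. KO libraries overlapped through early telogen replicate 2, and the stage change in KO did not pass (log2 fold change 1.71 ± 0.67, adjusted p = 0.0981). It passed in KO without early telogen KO replicate 2 (2.02, adjusted p = 0.0155), with no filter on low counts (1.53e-05), DESeq2 (0.00533), the sex label as a covariate (0.0163) and all 12 libraries in 1 fit (0.0495), the adjusted p running from 1.53e-05 to 0.492 over all alternatives.

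Lama5, the alpha chain of the widespread epithelial laminins, was at 516, 179.8 and 245 CPM in anagen WT, 462 and 269 in anagen KO, 252, 293 and 277 in early telogen WT, and 216, 250.1, 313 and 165 in early telogen KO. It passed in no comparison, and the stages overlapped in both genotypes. Lama4, known as a chain of vessel basement membranes, was low at 3.69, 4.41 and 5.46 CPM in anagen WT, 3.88 and 2.24 in anagen KO, 12.6, 5.65 and 8.48 in early telogen WT, and 16.8, 14.1, 11.3 and 11.3 in early telogen KO. All early telogen libraries were above all anagen libraries, with a log2 fold change of 1.05 ± 0.34 (adjusted p = 0.0432) in WT and a log2 fold change of 2.11 ± 0.39 (adjusted p = 0.00406) in KO. The WT call was lost without anagen WT replicate 1 (0.116), 2 (0.093) or 3 (0.0532), without early telogen WT replicate 1 (0.162) or 4 (0.101) and with the sex label as a covariate (0.0753), over a range of 0.0134 to 0.162. The 8 endothelial markers summed to 14.8 to 19.1 CPM in anagen WT and 4.45 to 26.3 CPM in early telogen WT, and to 12.9 and 17.2 CPM in anagen KO and 21 to 38.6 CPM in early telogen KO. Lama4 in early telogen WT was lowest in replicate 3, which also had the lowest endothelial sum. The part of endothelial RNA in the Lama4 values was not tested.

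Lama2, a chain known from muscle, was at 2.07, 4.19 and 1.47 CPM in anagen WT, 2.19 and 1.03 in anagen KO, 4.82, 0.185 and 5.22 in early telogen WT, and 4.48, 12.3, 6.97 and 2.25 in early telogen KO. It passed in KO, without overlap, with a log2 fold change of 2.0 ± 0.65 (adjusted p = 0.0482), and early telogen KO replicate 2, which had the highest fibroblast sum, was the highest of the 12. The call was lost without anagen KO replicate 1 (0.0677) or 2 (0.27), without early telogen KO replicate 2 (0.0751) or 3 (0.0998), with the sex label as a covariate (0.0622) and with all 12 libraries in 1 fit (0.118), over a range of 0.0074 to 0.27. The sex label sets early telogen KO replicate 2 apart, so the loss with it and that without replicate 2 are not separate. The 9 fibroblast markers were between 372 and 707 CPM in anagen KO and between 481 and 5022 CPM in early telogen KO, and their part in Lama2 was not tested. Lama1, an early embryonic chain, stayed at or below 1.5 CPM outside early telogen KO replicate 2, where it reached 7.46 CPM. Its stage change in KO did not pass (log2 fold change 2.86 ± 1.15, adjusted p = 0.0963) and passed without early telogen KO replicate 1 (3.26, adjusted p = 0.0476), with DESeq2 (0.0311) and with no filter on low counts (0.014), over a range of 0.014 to 0.335.

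Lamc1, the gamma chain of most laminins, was at 262, 76.8 and 82 CPM in anagen WT, 244 and 109 in anagen KO, 60.8, 61.1 and 66.1 in early telogen WT, and 76, 85.7, 85.4 and 45.5 in early telogen KO. Early telogen libraries were below anagen libraries of their genotype, and the change passed in KO, with a log2 fold change of -1.27 ± 0.33 (adjusted p = 0.0223), and not in WT (log2 fold change -1.07 ± 0.49, adjusted p = 0.152), where it passed with DESeq2 (0.0332), over a range of 0.0332 to 0.328. The KO call was lost without anagen KO replicate 1, where the log2 fold change was -0.59 (adjusted p = 0.3), without early telogen KO replicate 1 (0.053) and with all 12 libraries in 1 fit (0.0567), over a range of 6.4e-06 to 0.3. Lamc3, a minor gamma chain, was at 3.8, 1.97 and 1.73 CPM in anagen WT, 1.49 and 1.58 in anagen KO, 0.893, 0.464 and 0.816 in early telogen WT, and 2.12, 3.02, 1.42 and 1.13 in early telogen KO. WT early telogen libraries were below WT anagen libraries, and the change did not pass (log2 fold change -1.72 ± 0.59, adjusted p = 0.0529), nor did that in KO (log2 fold change 0.32 ± 0.61, adjusted p = 0.732). The WT change passed with DESeq2 (0.0469) and with all 12 libraries in 1 fit (0.0376), over a range of 0.0376 to 0.228.

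**Figure D2:**
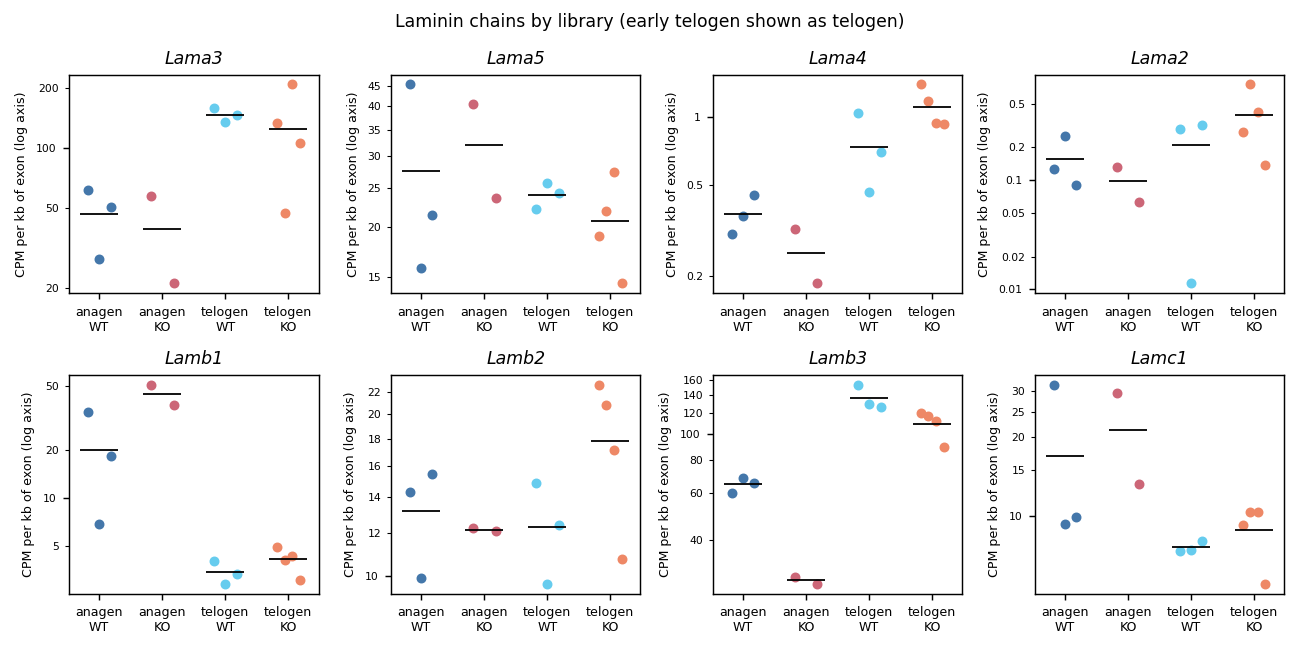
CPM per kilobase of exon (log axis, scaled for each gene) of 8 laminin chains in each library, as points by group, with the group mean as a line. Lamb3 and Lama4 are higher and Lamb1 lower in every early telogen library than in every anagen library, and Lamb3 is lowest in both anagen KO libraries.

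Of the integrin alpha chains, Itga2, the collagen receptor chain of keratinocytes, had the largest WT rise of the 35 genes tested. Itga2 (chr13:114833081-114932100) was at 35.1, 10.1 and 17.9 CPM in anagen WT, 37.2 and 4.93 in anagen KO, 225, 163 and 182 in early telogen WT, and 136, 76.9, 286 and 73.2 in early telogen KO. All early telogen libraries exceeded all anagen libraries, and the WT change was a log2 fold change of 3.25 ± 0.44 (adjusted p = 0.00368). Without anagen WT replicate 1 it was 3.85 (adjusted p = 0.00025). The stage change in KO was a log2 fold change of 2.82 ± 1.02 (adjusted p = 0.0913) and passed with DESeq2 (0.036), no filter on low counts (4.4e-16) and all 12 libraries in 1 fit (0.0445), over a range of 4.4e-16 to 0.389.

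Itga1, the other collagen-binding chain that passed, moved the opposite way. Its values were 31.2, 8.2 and 9.33 CPM in anagen WT, 25.5 and 32.4 in anagen KO, 5.62, 4.63 and 3.75 in early telogen WT, and 7.95, 5.69, 8.19 and 1.88 in early telogen KO. Early telogen libraries were below anagen libraries of each genotype, with a log2 fold change of -1.70 ± 0.54 (adjusted p = 0.0471) in WT and a log2 fold change of -2.21 ± 0.42 (adjusted p = 0.00441) in KO. The WT call was lost without anagen WT replicate 1, where the log2 fold change was -0.80 (adjusted p = 0.13), without early telogen WT replicate 1 (0.105), 3 (0.123) or 4 (0.141) and with RLE size factors (0.051), over a range of 0.0051 to 0.141. Itga1 shares 685 exon bases on its own strand with Gm49395. Itga10 and Itga11 were at most 3.58 CPM and did not pass.

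The laminin receptors Itga3, Itga6 and Itga7 differed in level and movement. Itga6, the gated chain, was at 709.6, 612 and 879.8 CPM in anagen WT, 624 and 579 in anagen KO, 762, 721 and 789 in early telogen WT, and 759, 696, 866 and 695 in early telogen KO and passed in no comparison. Itga3, which pairs with Itgb1, was at 602, 387 and 492 CPM in anagen WT, 491 and 387 in anagen KO, 275, 343 and 324 in early telogen WT, and 236, 282, 262 and 188 in early telogen KO. Early telogen libraries were below anagen libraries within each genotype. The change passed in KO (log2 fold change -0.86 ± 0.24, adjusted p = 0.0285) and not in WT (log2 fold change -0.55 ± 0.21, adjusted p = 0.0683). The KO call was lost without anagen KO replicate 1 (0.202) and without early telogen KO replicate 1 (0.0805) or 5 (0.0541), over a range of 0.00606 to 0.202, and the WT change passed with no filter on low counts (0.0186) and without anagen WT replicate 2 (0.0377), over a range of 0.0186 to 0.22.

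Itga7, a laminin receptor chain known from muscle, was at 18.5, 5.18 and 9.1 CPM in anagen WT, 51.2 and 13.3 in anagen KO, 5.27, 2.87 and 1.96 in early telogen WT, and 6.01, 7.29, 6.47 and 4.51 in early telogen KO. The WT groups overlapped by 1 library and the KO groups did not, with a log2 fold change of -1.59 ± 0.51 (adjusted p = 0.0451) in WT and a log2 fold change of -2.39 ± 0.44 (adjusted p = 0.00432) in KO. The WT call was lost without anagen WT replicate 1 (log2 fold change -0.97, adjusted p = 0.178) or 3 (0.0675) and without early telogen WT replicate 3 (0.133) or 4 (0.131), over a range of 0.00313 to 0.178. The KO call was lost without anagen KO replicate 1 (-1.14, adjusted p = 0.151) and was larger without replicate 2 (-3.11, adjusted p = 4.44e-05), over a range of 9.79e-11 to 0.151. The replicate 1 libraries with the highest Itga7 were those with the highest smooth muscle and pericyte sums of anagen. These sums hold Cspg4 and genes that moved in different directions between stages in KO, and their part in Itga7 was not tested.

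Itgav, the alpha chain of the RGD-binding integrins of epithelium, was at 90.8, 71.4 and 93.2 CPM in anagen WT, 101 and 69.1 in anagen KO, 117, 108 and 143 in early telogen WT, and 142, 158, 210 and 113 in early telogen KO. Early telogen libraries were above anagen libraries in both genotypes, and the change passed in WT (log2 fold change 0.61 ± 0.17, adjusted p = 0.0219) and not in KO (log2 fold change 0.89 ± 0.32, adjusted p = 0.066). The WT call was lost without anagen WT replicate 2 (0.061), without early telogen WT replicate 3 (0.0523) or 4 (0.112) and with all 12 libraries in 1 fit (0.0707), over a range of 0.004 to 0.112. In KO the sex covariate again sets apart early telogen replicate 2 alone. The stage change in KO passed without early telogen KO replicate 2 (0.0453), with no filter on low counts (0.0287), DESeq2 (0.0247), the sex label as a covariate (0.0472) and all 12 libraries in 1 fit (0.0243), over a range of 0.0243 to 0.385.

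Itga4, low in every library, was at 1.01, 1.88 and 1.89 CPM in anagen WT, 1.05 and 1.52 in anagen KO, 3.12, 5.38 and 4.08 in early telogen WT, and 1.95, 2.84, 1.11 and 0.751 in early telogen KO. WT groups did not overlap, with a log2 fold change of 1.5 ± 0.48 (adjusted p = 0.0399). The call was lost without anagen WT replicate 1 (0.109), 2 (0.0697) or 3 (0.0627), without early telogen WT replicate 3 (0.124) or 4 (0.0944) and with the sex label as a covariate (0.0622), over a range of 0.00921 to 0.124.

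Of the 7 beta chains, Itgb1, the partner of most of the alpha chains above, was at 829.7, 555 and 663 CPM in anagen WT, 956 and 617 in anagen KO, 1083, 1340 and 1290 in early telogen WT, and 1166, 623, 1305 and 1077 in early telogen KO. It rose in WT without overlap, with a log2 fold change of 0.96 ± 0.21 (adjusted p = 0.00928), and the stage change in KO did not pass (log2 fold change 0.44 ± 0.37, adjusted p = 0.423), with early telogen KO replicate 2 among the anagen values. Itgb5, a partner of Itgav, was at 89.1, 59.5 and 76.1 CPM in anagen WT, 103 and 120 in anagen KO, 55.9, 64.3 and 60.7 in early telogen WT, and 62.1, 80.5, 49.4 and 54.8 in early telogen KO. It fell in KO, where the groups did not overlap (log2 fold change -0.87 ± 0.21, adjusted p = 0.0142), and did not pass in WT (log2 fold change -0.22 ± 0.18, adjusted p = 0.409). The KO call was lost without anagen KO replicate 2 (0.0983), over a range of 0.00326 to 0.0983.

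Itgb4, the hemidesmosomal beta chain, was at 678, 519 and 1058 CPM in anagen WT, 576 and 573 in anagen KO, 1360, 1097 and 1019 in early telogen WT, and 946, 819, 848 and 527 in early telogen KO. Its stage change did not pass in WT (log2 fold change 0.72 ± 0.25, adjusted p = 0.0579), where anagen replicate 3 lay among the early telogen values, or in KO (log2 fold change 0.45 ± 0.28, adjusted p = 0.275). In WT it passed without anagen WT replicate 3 (1.05, adjusted p = 0.00808), with RLE size factors (0.0467), no filter on low counts (0.0186) and DESeq2 (0.0121), over a range of 0.00808 to 0.151. Itgb8, which with Itgav activates latent TGF-beta, was between 31.7 and 54.8 CPM, and Itgb3 and Itgb7 were at most 4.31 CPM. These 3 genes did not pass between stages.

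The ligand Npnt (chr3:132881745-132950291) was at 251, 504 and 196 CPM in anagen WT, 37.3 and 99.6 in anagen KO, 144, 75.8 and 95.6 in early telogen WT, and 84.2, 84.3, 119 and 148 in early telogen KO. Its WT fall passed (log2 fold change -1.53 ± 0.39, adjusted p = 0.0259), all anagen WT libraries being above all others, and its stage change in KO did not pass (log2 fold change 0.69 ± 0.43, adjusted p = 0.268). The WT call was lost without early telogen WT replicate 3 (0.0765) or 4 (0.0852), with no filter on low counts (0.0784) and with the sex label as a covariate (0.0772), over a range of 0.000155 to 0.0852. The stage change in KO passed without anagen KO replicate 2 (1.51, adjusted p = 0.037), over a range of 0.037 to 0.881.

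Of the Fraser complex, whose proteins join the epidermal basement membrane to the dermis, Fras1 was at 20.2, 3.79 and 5.56 CPM in anagen WT, 18.9 and 12.8 in anagen KO, 0.982, 0.278 and 0.979 in early telogen WT, and 3.21, 5.51, 3.33 and 2.25 in early telogen KO. Early telogen libraries were below anagen libraries in each genotype, and the fall was a log2 fold change of -3.68 ± 0.78 (adjusted p = 0.0109) in WT and a log2 fold change of -2.13 ± 0.38 (adjusted p = 0.00321) in KO. The WT early telogen values rest on 11, 3 and 6 counts. Anagen WT replicate 1 was the highest library, and without it the WT log2 fold change was -2.58 (adjusted p = 0.0203). Frem2 was at 67.7, 77.4 and 72.9 CPM in anagen WT, 31.9 and 64.2 in anagen KO, 36, 28.7 and 44.7 in early telogen WT, and 27.9, 43.9, 48.3 and 29.7 in early telogen KO. It fell in WT, all anagen WT libraries being above all others, with a log2 fold change of -0.92 ± 0.18 (adjusted p = 0.0063), and did not pass in KO (log2 fold change -0.35 ± 0.33, adjusted p = 0.482). Frem1 was at most 1.3 CPM and did not pass.

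The linkers Hspg2 (perlecan, 110 to 428 CPM), Nid1 (1.13 to 11.9 CPM) and Nid2 (0.834 to 3.13 CPM), which tie laminin to type IV collagen and other matrix, did not pass between stages in either genotype. The stage change of Hspg2 in KO was -0.52 and passed without early telogen KO replicate 3 (-0.99, adjusted p = 0.0185), the library with the highest Hspg2, over a range of 0.0185 to 0.609.

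**Figure D3:**
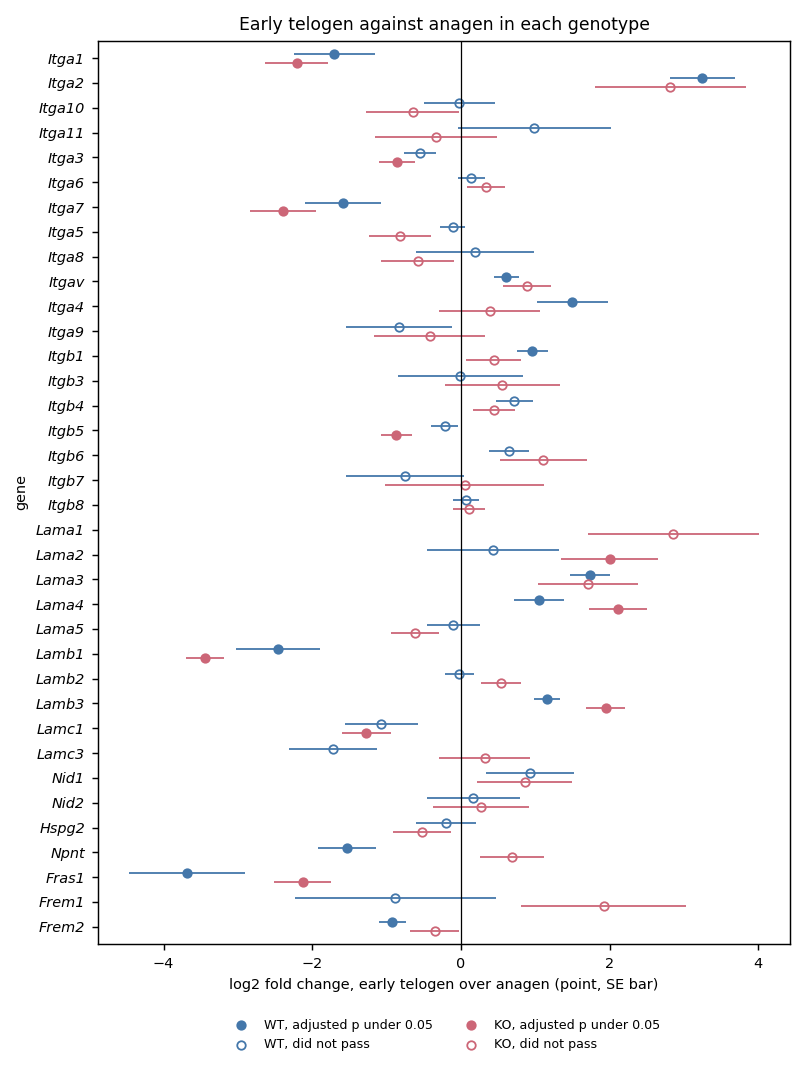
Log2 fold change of early telogen over anagen for the 36 genes in WT (blue) and KO (red), with SE bars. Filled points have an edgeR adjusted p under 0.05 over all genes. Lamb1 and Fras1 lie far to the left and Lamb3 to the right in both genotypes, and Lama1 has no WT point because it was not tested.

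Neighbouring genes of the pathway also differed between stages, and their counts stand beside 13.6% higher and 15.9% lower over all genes in WT, and 10.2% and 12% in KO. Of 3 tested hemidesmosome genes, Col17a1 rose (log2 fold change 0.96 ± 0.21, adjusted p = 0.00968) and Dst rose (log2 fold change 0.58 ± 0.18, adjusted p = 0.0393) in WT, while the tetraspanin Cd151 fell in WT (log2 fold change -0.64 ± 0.15, adjusted p = 0.0117) and in KO (log2 fold change -1.09 ± 0.21, adjusted p = 0.00451). Of the other integrin subunits, Itga2b, a platelet chain, fell in WT (log2 fold change -0.94 ± 0.30, adjusted p = 0.0433), 1 of 4 tested, and in KO (log2 fold change -1.49 ± 0.37, adjusted p = 0.0174), 1 of 7 tested, and the others did not pass. Of 9 collagens of the basement membrane zone, 4 fell in WT (Col4a1, Col4a2, Col4a5 and Col4a6) and none rose, beside the 15.9% of all genes lower. Col4a5, a chain of type IV collagen, fell from 91.8 ± 26.5 CPM to 22.9 ± 4.85 CPM (SD, n = 3 and 3; log2 fold change -1.92 ± 0.25, adjusted p = 0.0014). In KO, 4 of 7 tested fell (Col4a1, Col4a2, Col4a5 and Col18a1), with Col4a2 at 656 ± 21.9 CPM in anagen and 82.1 ± 5.92 CPM in early telogen (SD, n = 2 and 4; log2 fold change -3.00 ± 0.23, adjusted p = 1.9e-05), and Col7a1, which forms anchoring fibrils, rose (log2 fold change 1.10 ± 0.27, adjusted p = 0.0148). In WT, the calls of Col17a1 and Col4a5 were kept whichever library was left out, in 6 of 6 fits, and in KO so were those of Cd151, Col4a1, Col4a2, Col4a5 and Col18a1. Without early telogen WT replicate 3 the WT call of Cd151 was lost (0.0515). The WT calls of Dst, Itga2b and Col4a6 were kept in 1 of 6 such fits each, and those of Col4a1 in 2 and Col4a2 in 3. Without anagen KO replicate 1 the KO calls of Col7a1 (0.14) and Itga2b (0.106) were lost.

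Among 14 tested matrix ligands, Thbs1 and Spp1 rose and Ntn4 and Smoc2 fell in WT, 2 in each direction beside 13.6% and 15.9% of all genes. Ntn4, which binds laminin, fell from 50.9 ± 24.8 CPM to 2.81 ± 0.967 CPM (SD, n = 3 and 3; log2 fold change -4.06 ± 0.42, adjusted p = 0.00119), and Thbs1, thrombospondin, rose (log2 fold change 2.91 ± 0.63, adjusted p = 0.016). In KO 3 rose and 6 fell (10.2% and 12% of all genes), Ntn4 (log2 fold change -4.25 ± 0.32, adjusted p = 1.9e-05), Tnc (log2 fold change -2.74 ± 0.44, adjusted p = 0.00244) and Fbln1 (log2 fold change 1.5 ± 0.24, adjusted p = 0.00181) having the smallest p. Of 19 integrin-linked adaptors and kinases, 6 rose and 1 fell in WT, and 2 rose and 1 fell in KO, beside the same shares of all genes. Tns1, a tensin that binds beta chains, rose in WT (log2 fold change 1.40 ± 0.19, adjusted p = 0.00159) and in KO (log2 fold change 2.81 ± 0.25, adjusted p = 5.95e-05), as did the adaptor Bcar1 (log2 fold change 1.10 ± 0.16, adjusted p = 0.00175 in WT). Ilk, the integrin-linked kinase, fell in WT and in KO (log2 fold change -1.44 ± 0.25, adjusted p = 0.00321 in KO). The calls of Ntn4, Smoc2, Tns1 and Bcar1 in both genotypes, and of Tnc, Fbln1 and Ilk in KO, were kept in 6 of 6 fits that left out a library. The WT call of Spp1 was kept in 2 of 6, that of Ilk in 4 of 6, lost without anagen WT replicate 1 (0.0528) or early telogen WT replicate 1 (0.0533), and that of Thbs1 in 5 of 6, lost without anagen WT replicate 1 (0.0547). Without anagen WT replicate 3 the WT log2 fold change of Thbs1 was 3.62.

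With edgeR fitted on genotype alone within each stage, loss of Foxc1 gave no call among the 36 genes, and other settings called 0 to 3 of them in a stage. In early telogen, 34 genes were tested (Itga9 and Lama1 were too low) and 0 passed. An unadjusted p under 0.05 was found for 8 of the 34, a larger share than the 12% of all genes. Because the genes were chosen with earlier results of these data known, the larger share is a description only. Over all 12012 genes tested, 0.5% were higher and 0.45% lower in KO. The median log2 fold change was -0.00 over these genes and 0.03 over all. With DESeq2, Fras1 was called higher and Itga5 and Itgb4 lower, where 3.52% of all genes were called in either direction. In anagen, 36 were tested, 0 passed and 5 had an unadjusted p under 0.05 (10.1% of all genes). Of 14409 genes 0% were higher and 0% lower. Foxc1 itself did not pass in this fit (log2 fold change -8.19, edgeR adjusted p = 0.0522). The median was -0.08 over the 36 genes and 0.02 over all. DESeq2 called Itga8 higher and Lamb3 and Npnt lower, in a background that was also 3.52%. With the title day (P29 and P31, each shared by KO and WT) as a replicate block, edgeR called Itgb6 and Lamb3 lower in anagen KO, where 0.319% of all genes were higher and 1.44% lower, a fit with 1 degree of freedom left over. With the replicate number as the block in early telogen it called 0 of 34, where 0.0333% of all genes were higher and 0.0583% lower. That fit also has 1 degree of freedom left over, and KO and WT share only the numbers 1 and 3.

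Itga5 (chr15:103344286-103366763), the alpha chain of the main fibronectin receptor, had the smallest p in early telogen. It was at 118, 94.8 and 84.3 CPM in anagen WT, 135 and 41.6 in anagen KO, 90.1, 86.9 and 82.7 in early telogen WT, and 47.7, 47.9, 65 and 37.2 in early telogen KO. The early telogen KO libraries were all below the WT libraries, at 49.4 ± 11.5 CPM (SD, n = 4) against 86.5 ± 3.7 CPM (SD, n = 3), and anagen KO libraries lay on either side of WT. The early telogen change was a log2 fold change of -0.96 ± 0.21 (adjusted p = 0.0507) and did not pass. It passed with no filter on low counts (0.00227), DESeq2 (0.00656), the sex label as a covariate (0.0387) and without KO replicate 3 (0.00968), over a range of 0.00227 to 0.289. Without KO replicate 2 and WT replicate 3, the libraries that stood apart on markers, it was -0.83 (adjusted p = 0.212). In anagen the KO change was a log2 fold change of -0.25 ± 0.47 (adjusted p = 0.902). The stage change in KO was a log2 fold change of -0.82 ± 0.42 (adjusted p = 0.184), and it passed without anagen KO replicate 2 (-1.48, adjusted p = 0.00616) and turned to 0.25 (adjusted p = 0.719) without anagen KO replicate 1, over a range of 0.00577 to 0.719.

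Fras1 and Itgb4 had the next smallest p in early telogen. For Fras1 the KO libraries, at 3.58 ± 1.38 CPM (SD, n = 4), were all above WT, at 0.746 ± 0.405 CPM (SD, n = 3), with a log2 fold change of 2.12 ± 0.62 (adjusted p = 0.148). DESeq2 gave 0.0383, over a range of 0.0383 to 0.615. Itgb4 was lower in every KO library than in every WT library, at 785 ± 180 CPM against 1158 ± 179 CPM, with a log2 fold change of -0.73 ± 0.23 (adjusted p = 0.184). DESeq2 gave 0.0375, over a range of 0.0375 to 0.539. Without KO replicate 2 and WT replicate 3, these changes were 1.54 (adjusted p = 0.615) and -0.68 (adjusted p = 0.433).

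In anagen, Lamb3 had the smallest p. Its KO libraries were at 187 ± 7.36 CPM (SD, n = 2) and its WT libraries at 428 ± 27.7 CPM (SD, n = 3), with a log2 fold change of -1.28 ± 0.21 (adjusted p = 0.109). It passed with no filter on low counts (0.00419), DESeq2 (3.53e-08), all 12 libraries in 1 fit (0.00613) and the replicate block (-1.23, adjusted p = 0.0242), and over all alternatives the adjusted p ran from 3.53e-08 to 0.913, the highest with the sex label as a covariate. In anagen the sex labels were female for 2 of 2 KO libraries and for 1 of 3 WT libraries. In early telogen Lamb3 was also lower in every KO library than in every WT library, with a log2 fold change of -0.49 ± 0.20 (adjusted p = 0.323).

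Itga8 was low and higher in KO than in WT libraries in both stages, at 0.844, 0.216 and 0.926 CPM in anagen WT, 4.81 and 3.62 in anagen KO, 0.714, 0.371 and 1.14 in early telogen WT, and 2.79, 4, 2.83 and 1.5 in early telogen KO. The KO change was a log2 fold change of 2.57 ± 0.60 (adjusted p = 0.218) in anagen and a log2 fold change of 1.79 ± 0.65 (adjusted p = 0.269) in early telogen. In anagen it passed with no filter on low counts (0.0052) and DESeq2 (0.00364), over a range of 0.00364 to 1. The early telogen values rest on 4 to 45 counts in KO and 4 to 8 in WT. Itga8 shares 372 exon bases with E030013I19Rik on the other strand. Smooth muscle and pericyte markers, the cells in which Itga8 is known in skin, summed to 285 and 636 CPM in KO and 185 to 554 CPM in WT in anagen, and to 186 to 292 CPM in KO and 239 to 317 CPM in WT in early telogen. These ranges overlapped in both stages, and the sums include Cspg4, whose group means were 153.5 to 222.5 CPM.

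Npnt, the Itga8 ligand, was at 68.5 ± 44 CPM in anagen KO (SD, n = 2) and 317 ± 164 CPM in anagen WT (SD, n = 3), without overlap (log2 fold change -2.31 ± 0.59, adjusted p = 0.275). DESeq2 gave 0.00109, over a range of 0.00109 to 1. In early telogen the groups overlapped, KO being at 109 ± 31 CPM and WT at 105 ± 34.8 CPM (log2 fold change -0.08 ± 0.28, adjusted p = 0.942). Itgb6, which pairs with Itgav and activates latent TGF-beta, was at 180.1, 116 and 87.9 CPM in anagen WT, 74.8 and 32.5 in anagen KO, 157, 206 and 199 in early telogen WT, and 101, 62.6, 207 and 74 in early telogen KO. Its KO change was a log2 fold change of -1.34 ± 0.45 (adjusted p = 0.392) in anagen, without overlap, and with the replicate block it passed (-1.43, adjusted p = 0.013), over a range of 0.013 to 0.952. The change was a log2 fold change of -0.88 ± 0.45 (adjusted p = 0.498) in early telogen, where KO replicate 3 lay in the WT range. Without that replicate the early telogen change was -1.44 (adjusted p = 0.026), over a range of 0.026 to 0.938. Its WT change between stages did not pass (log2 fold change 0.65 ± 0.27, adjusted p = 0.1) and passed without anagen WT replicate 1 (0.98, adjusted p = 0.0152) and with DESeq2 (0.041), over a range of 0.0152 to 0.339. That in KO did not pass (log2 fold change 1.11 ± 0.59, adjusted p = 0.213) and passed with no filter on low counts (0.00343), over a range of 0.00343 to 0.739.

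**Figure D4:**
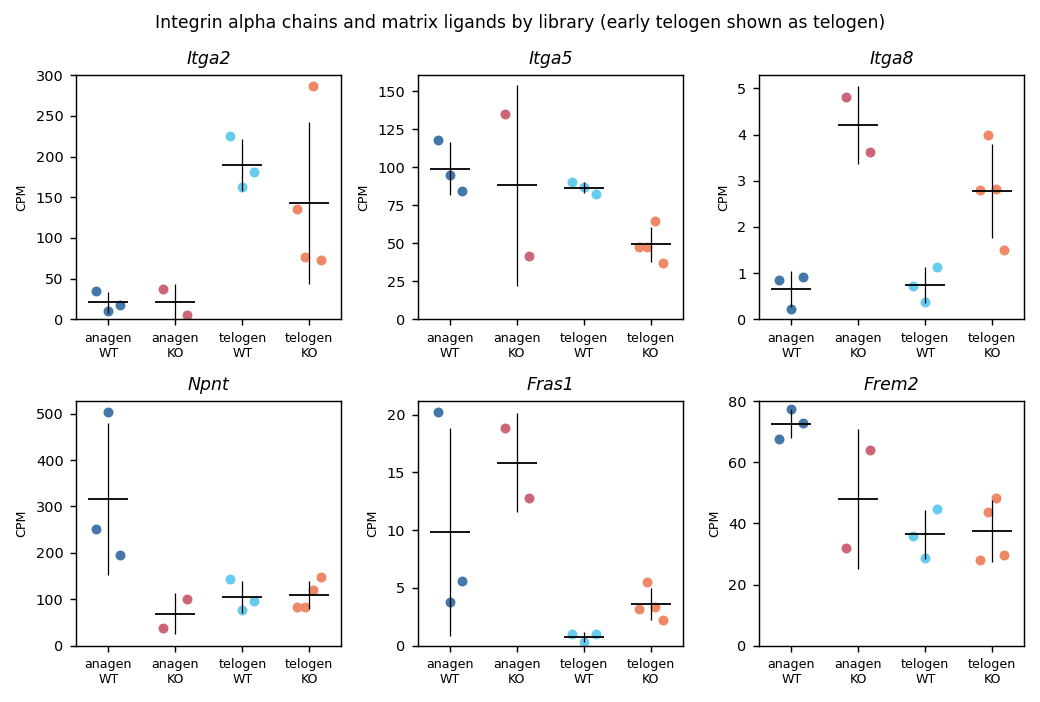
CPM of 6 genes in each library (points by group, line for the mean, bar for 1 SD). Itga5 is lower in every early telogen KO than WT library, Itga8 is higher in KO in both stages, and Npnt is highest in the 3 anagen WT libraries.

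Counted by overlap alone, KO and WT libraries did not overlap for 8 of the 34 genes tested in early telogen. Of these, 4 were higher in KO (Itga8, Itgb8, Lamc3 and Fras1) and 4 lower (Itga4, Itga5, Itgb4 and Lamb3). Over all 12012 genes tested, 13.1% did not overlap, 1171 higher and 406 lower. In anagen the libraries did not overlap for 10 of 36, 4 higher (Itga8, Itgb5, Itgb8 and Lamb1) and 6 lower (Itgb6, Lamb3, Lamc3, Npnt, Frem1 and Frem2). Over all 14409 genes it was 29.7%, 2668 higher and 1613 lower, so the anagen share was near the background in total. In both stages genes higher in KO prevailed over all genes and not among these. The 2 stages share no library. Itga8 and Itgb8 were higher and Lamb3 lower without overlap in both stages, 3 of 34 genes where 4.13% of 11926 genes did so. Lamc3 was higher in early telogen and lower in anagen. Itgb8 was at 50.1 and 45.3 CPM in anagen KO, 32.2 to 36.5 CPM in anagen WT, 47.8 to 54.8 CPM in early telogen KO and 31.7 to 37.5 CPM in early telogen WT. Its KO change did not pass in anagen (log2 fold change 0.38 ± 0.18, adjusted p = 0.539) or in early telogen (log2 fold change 0.43 ± 0.17, adjusted p = 0.323).

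**Figure D5:**
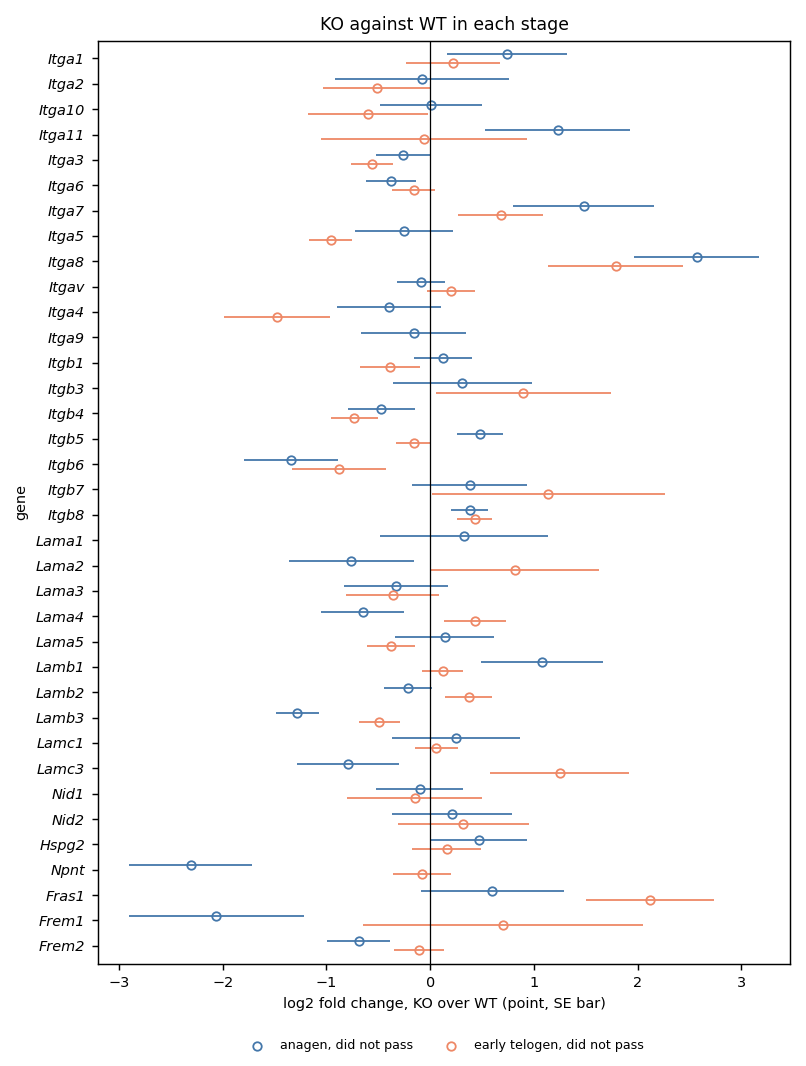
Log2 fold change of KO over WT for the 36 genes in anagen (blue) and early telogen (orange), with SE bars. All points are open because no gene had an edgeR adjusted p under 0.05 in these fits, which have no replicate block. Itga8 lies to the right and Lamb3 to the left in both stages, and Itga9 and Lama1 have no early telogen point.

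Between the stages, the KO effect did not pass a test of difference for any of the 36 genes (edgeR, 12 libraries). An unadjusted p under 0.05 was found for 5 of the 36, a larger share than the 6.37% of all genes. This too is a description only, given how the genes were chosen. Of 13193 genes, 0.129% passed with a higher and 0.0152% with a lower effect in early telogen. Npnt had the smallest p, its KO log2 fold change being 2.21 higher in early telogen than in anagen (adjusted p = 0.386). It passed with DESeq2 (0.0303) and no filter on low counts (6.34e-08), over a range of 6.34e-08 to 0.788. Lamb3 followed with 0.78 (adjusted p = 0.48) and Lamc3 with 2.03 (adjusted p = 0.62).

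Of the other genes of the pathway, edgeR called 2 of 49 for Foxc1 loss in early telogen, both lower in KO, where 0.45% of all genes were lower. Col4a4, a type IV collagen chain, was at 0.146 ± 0.192 CPM in KO (SD, n = 4) and 4.37 ± 1.86 CPM in WT (SD, n = 3), with a log2 fold change of -4.79 ± 0.87 (adjusted p = 0.0242), 1 of 9 collagens tested. Zyx, the focal adhesion protein zyxin, fell from 779 ± 106 CPM in WT to 338 ± 94.7 CPM in KO (log2 fold change -1.35 ± 0.26, adjusted p = 0.0328), 1 of 19 adaptors tested. None of 3 hemidesmosome genes, 4 other integrin subunits and 14 matrix ligands passed. The call of Col4a4 was lost without early telogen KO replicate 5 (0.0741) or without WT replicate 3 (0.131) or 4 (0.0757), and its log2 fold change was -5.87 without KO replicate 3. With the replicate block, a fit with 1 degree of freedom left over, neither Col4a4 nor Zyx was called in early telogen. The call of Zyx was kept in 2 of 7 fits that left out a library, with an adjusted p of 0.0615 without KO replicate 1, 0.123 without KO replicate 5, 0.0872 without WT replicate 1, 0.122 without WT replicate 3 and 0.0811 without WT replicate 4. In anagen edgeR called 0 of the 55 genes tested in the 5 lists, with 8 at an unadjusted p under 0.05 (10.1% of all genes). With the replicate block it called 4 lower (Col4a4, Col7a1, Egfl6 and Tns1), where 1.44% of all genes were lower. DESeq2 called 7 of them in anagen (Col4a3, Col4a4, Col7a1, Fbln1, Egfl6, Zyx and Tns1) and 7 of 49 in early telogen (Col4a2, Col4a4, Col18a1, Smoc1, Parva, Zyx and Tns1), where edgeR gave 18 at an unadjusted p under 0.05 (12% of all genes). In both stages DESeq2 called 3.52% of all genes.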

How the data were processed

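The data are raw read counts per gene, deposited as 1 table per stage. The authors used TopHat2, HTSeq and the mouse build mm10, per the submitters' processing notes, in roles and versions not given in the sources used here. The libraries were made with a directional kit, per the labels' protocols, and the strand setting of the counting is not given in the sources used here. In the anagen table, reads placed at more than 1 position were 31.1% and 32.8% of all tallied reads in KO and 20.1% to 25.8% in WT. These reads count for no gene. The early telogen table held 3 broken lines and 27 gene names turned into dates, which were left out. No member was among them.

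CPM is a gene's count over the total of gene rows, times 1000000, and CPM per kb divides it by the union of exon bases in GENCODE for GRCm38. Tests used edgeR 4.0.16 in R 4.3.3 on the deposited counts, scaled by TMM. Low genes were removed by filterByExpr (at least 10 counts, 15 in total). Each gene was tested by the quasi-likelihood method with robust fitting, p-values were adjusted by Benjamini-Hochberg over all genes tested, and 0.05 was the threshold. Log2 fold changes are given ± SE. Genotype was tested within each stage, stage within each genotype, and the stage dependence of the KO effect over all 12 libraries. The fits were tested on simulated data with known changes. These data gave every gene the same spread beyond counting error, and changes were placed only in genes above a minimum mean count. They therefore do not show how the fits treat genes of few counts or wide spread. Alternatives were RLE size factors, no filter, DESeq2 1.42.0, the sex label as a covariate, all 12 libraries in 1 fit, a replicate block, each library left out, and TMM-scaled CPM. An alternative without the 2 early telogen libraries that stood apart on markers was added after seeing the data.

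The genes and lists were chosen with earlier results of these data known. Values in every library are given for genes that passed in any comparison, the 3 of smallest p where fewer than 3 passed, and a fixed set of 11 adhesion genes. The other 12 are given by their range or highest level, Itgb8 and Lamb2 also by group or fold change. Pathway genes come from 5 lists, with values for at most 3 that passed per list. 1 related gene is not reported here. Counts carry no molecular identifiers, so they count reads, and the number of molecules behind them is not known. Depth also enters the filter on low counts.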

Additional observations from a re-analysis of the deposited data

Results flagged for a closer look

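In early telogen KO, the group of 4 libraries, 2 of the 36 genes had a library far from the other 3, judged by the gap to its nearest neighbour over the range of the group. Chance marks about 1 in 20 groups, so 2 of 36 is near the share that chance alone gives. Lama1 was at 7.46 CPM in replicate 2, with a gap of 0.847 of the range, and this library also had the highest fibroblast, infundibulum and immune marker sums. Hspg2 was at 428 CPM in replicate 3, with a gap of 0.97 of the range.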

How the results depend on the processing

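Of 512 values of genes called in any setting, over 45 pairs of gene and comparison, 511 kept the direction of the main value. The exception was an uncalled Itga5 value. Pairs entered because a setting called them, and the settings share most of their libraries, so a kept direction was likely beforehand. In early telogen, 0 higher and 0 lower members in KO became 1 higher with DESeq2, and 1, 2 and 1 lower with no filter on low counts, DESeq2 and the sex label as a covariate. In anagen, 0 and 0 became 1 higher with no filter or DESeq2, and 1, 2 and 1 lower with no filter, DESeq2 and all 12 libraries in 1 fit. For early telogen against anagen in KO, 3 higher became 8 with no filter, 7 with DESeq2 and 5 with all 12 libraries in 1 fit. The stage dependence of the KO effect went from 0 higher to 1 with no filter or DESeq2. The causes were not tested. Leaving out each library gave 0 to 2 lower in early telogen KO against WT, 4 to 6 higher and 2 to 7 lower for stage in WT, and 2 to 4 higher and 4 to 8 lower for stage in KO. Leaving out both libraries that stood apart on markers, chosen after seeing the data, gave 0 calls, as before, in KO against WT in early telogen and in the stage dependence of the KO effect, the comparisons that hold both. With TMM-scaled CPM, 0 members were below 1 CPM in every library, as with plain CPM.

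With the replicate block in anagen (title day), 2 members were lower in KO, Itgb6 (-1.43, edgeR adjusted p = 0.013) and Lamb3 (-1.23, edgeR adjusted p = 0.0242), and in early telogen (replicate number) 0 were called. Deviations from the group mean correlated at 0.414 (P29) and 0.359 (P31) for libraries of the same title day in anagen. For libraries of the same number in early telogen they correlated at 0.106 and 0.0531. The 2 anagen KO libraries deviate from their mean as mirror images, so the 2 anagen correlations are not independent. With 2 pairs each, and an age label that differs from the title in the P31 WT library, whether the libraries are paired was not settled. Depth limits the genes of few counts most in early telogen KO replicate 5, where Itga4 had 2 counts and Lamc3 had 3.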
